A study of Mus musculus with 5 samples.

Results

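The major urinary protein genes (Mup) form a tandem family on mouse chromosome 4. The rows of the deposited gene table whose symbol is Mup1, Mup2, Mup3, Mup7, Mup10, Mup11, Mup12, Mup17, Mup20 or Mup21 were taken, which gave 10 of the table's 11048 genes, and each of the 10 symbols matched 1 row. The table held 8 other Mup rows, which are described beside them. RNA sequencing had been done on livers from db/db mice, which are obese and diabetic because the leptin receptor is defective in every cell. Both groups carried this defect, and no group with an intact receptor was analysed here. The SR4 group held 2 libraries from mice given SR4 by oral gavage at 10 mg/kg of body weight, for 5 weeks that followed 1 week of acclimatization. The vehicle group held 3 libraries from mice given the vehicle on the same schedule. SR4 is a compound that the series title calls a proton transporter activated by fatty acids. Age, sex and the strain that carries the mutation were not given in the sources used here. No label states that each library is a separate animal, and p-values here therefore reflect the spread among these 5 libraries, which may be technical. The question the comparison addressed was how SR4 changed liver expression; the Mup genes were not named in it.

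Major urinary proteins are small lipocalins, barrel-shaped carriers of hydrophobic molecules. Hepatocytes secrete them into blood, the kidney filters them, and the urine of mice carries them together with bound pheromones. In mouse liver most Mup genes are expressed more in males, under pulsed growth hormone acting through its receptor, the kinase JAK2 and the factor STAT5b. Glucocorticoid and thyroid hormone also raise Mup mRNA in mice. Circulating MUP1 has been linked to glucose and lipid metabolism in mice, and livers of db/db mice have been described as low in MUP1. Mup20 encodes darcin, a male urinary protein that attracts females.

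The members differed in how far their transcripts can be told apart, which decides what a value of 1 gene can mean. Among the 45 pairs of members, coding sequences were 82.1% to 99.6% identical, with a median of 91.3% (GENCODE M21, GRCm38). Without Mup20, Mup3 and Mup21 the remaining 21 pairs were 98.3% to 99.6% identical. The same 60-base stretch of the coding sequence is printed for 6 members, placed by its distance from the last coding base and read 5′ to 3′ on the gene's strand; capitals mark bases that differ from Mup2.
Mup2: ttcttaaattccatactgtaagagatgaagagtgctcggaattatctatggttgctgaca
Mup17: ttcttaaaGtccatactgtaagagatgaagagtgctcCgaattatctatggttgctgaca
Mup7: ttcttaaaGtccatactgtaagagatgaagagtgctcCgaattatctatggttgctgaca
Mup20: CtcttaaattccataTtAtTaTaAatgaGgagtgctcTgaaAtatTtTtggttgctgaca
Mup3: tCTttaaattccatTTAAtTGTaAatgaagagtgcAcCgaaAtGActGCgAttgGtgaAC
Mup21: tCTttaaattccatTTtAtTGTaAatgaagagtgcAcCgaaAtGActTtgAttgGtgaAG
Mup17 and Mup7 share 1 sequence here and differ from Mup2 at 2 of the 60 bases, Mup20 at 11, Mup21 at 19 and Mup3 at 21.

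Shared stretches of 100 bases gave the same order. Of all such stretches along a member's transcript, 2.9% also lay in another gene's transcript for Mup3 and 4.5% for Mup21, in each case the other of these 2. For Mup20 the share was 38.8%, and the single partner was the pseudogene Mup-ps19. The other 7 members shared 59.4% (Mup17) to 97.3% (Mup2) of their 100-base stretches with other Mup genes. Stretches of 50 bases were shared more: 15.6% for Mup3, 19.3% for Mup21 and 50.5% for Mup20, against 78.1% (Mup17) to 100% (Mup2) for the other 7. At that length Mup20 also had stretches in common with Mup3 and with the near-identical members, and all near-identical members but Mup17 had some in common with a Mup3 transcript. The read length and the handling of reads that match several genes were not given in the sources used here. Values of Mup20, Mup3 and Mup21 are given as values of single genes, which holds less well for Mup20 if reads were short, and those of the other 7 as uncertain splits of a shared pool, beside sums that do not depend on the split among the rows summed.

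Mup3 and Mup21 also carry similar promoters, at 90.2% identity, against 61.6% between Mup2 and Mup3 and 58.1% between Mup2 and Mup21. Mup3 and Mup6, a Mup row outside the members, had 78.4%. Windows were aligned over their whole length with gaps counted, so a shifted start lowers the identity. Mup2 and Mup7, near-identical in coding sequence, had 40.3% by this measure. The promoters of Mup3 and Mup21 are printed because the values of these 2 neighbours are set side by side further on. They run from 250 bases before to 50 after the start in RefSeq (GRCm38.p6), at chr4:62087268-62087567 for Mup3 and chr4:62150792-62151091 for Mup21, both on the minus strand. Capitals mark TATATAA.
Mup3: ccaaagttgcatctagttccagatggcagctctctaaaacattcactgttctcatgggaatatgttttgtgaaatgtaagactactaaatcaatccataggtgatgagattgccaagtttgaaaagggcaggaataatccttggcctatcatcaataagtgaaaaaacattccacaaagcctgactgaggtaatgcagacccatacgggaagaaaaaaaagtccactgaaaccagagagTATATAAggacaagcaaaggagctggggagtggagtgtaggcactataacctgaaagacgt
Mup21: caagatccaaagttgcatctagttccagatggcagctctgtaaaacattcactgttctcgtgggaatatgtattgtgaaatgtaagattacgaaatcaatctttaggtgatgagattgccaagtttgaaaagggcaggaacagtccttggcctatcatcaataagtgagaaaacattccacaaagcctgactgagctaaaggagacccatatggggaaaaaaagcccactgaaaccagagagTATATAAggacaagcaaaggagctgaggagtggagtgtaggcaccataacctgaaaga
RefSeq promoters were matched for 7 of the 10 members; Mup1, Mup12 and Mup20 are named only. TATATAA, searched on both strands, lay in 6 of the 7, the exception being Mup7, against 3.25% of 32817 mouse promoters of the same length. The Mup7 window ends before the stretch that corresponds to the one holding TATATAA in Mup2. These are promoters of related genes, so the 6 are not independent cases. TTCNNNGAA, the letters of the STAT5 consensus, lay in 0 of the 7, against 8.29% of all promoters. A match or its lack says only whether these letters are in this window.

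The 10 members together took a smaller share of the library in SR4 livers. Values are given as normalised values, which are the authors' library-size-adjusted gene read counts divided by a TMM scaling factor, a per-library factor that lines up most genes. The family sum was 7971 and 10444 in SR4 libraries 1 and 2, against 26838, 28552 and 30727 in vehicle libraries 1, 2 and 3. Both SR4 libraries lay below all 3 vehicle libraries, an order that 20.5% of the genes tested further on had. The gap was wider than the range within either group. Near-identical members share stretches with Mup rows outside the 10, so the sum still depends in part on a split of reads. The sum averaged 9208 ± 1748 (SD, n = 2) in SR4 livers and 28705 ± 1949 (SD, n = 3) in vehicle livers, a log2 ratio of -1.65, or 3.14-fold lower with SR4. No p is given for the sum, because the members were chosen with results of these data known. In bulk liver, fewer cells of a type and less RNA per cell cannot be told apart.

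As a share of each library's total before TMM scaling, the family took 0.0296% (95% exact Clopper-Pearson interval 0.0289% to 0.0303%) in SR4 library 1 and 0.0393% (0.0385% to 0.0400%) in SR4 library 2. The share was 0.113% (0.112% to 0.114%), 0.113% (0.112% to 0.114%) and 0.123% (0.121% to 0.124%) in vehicle libraries 1, 2 and 3. The intervals were made on rounded values and cover counting error only. By either measure the SR4 livers had the lower family level. Transcripts of Alb, which encodes albumin, the main protein that the liver secretes, had normalised values of 2200610 and 1752440 in SR4 libraries, against 1612000, 2196520 and 1765610 in vehicle libraries, so the 2 groups overlapped for that gene.

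The family sum rested on few members. Mup20, Mup3 and Mup2 made up 89.9% and 83.7% of it in SR4 libraries 1 and 2, against 98.0%, 96.2% and 95.9% in vehicle libraries 1, 2 and 3. Their balance differed between vehicle livers. Mup20 made up 26.1% and 15.1% of the sum in the SR4 libraries, against 74.1%, 17.9% and 30.3% in vehicle libraries 1, 2 and 3. Mup2 made up 22.0% and 30.7% in the SR4 libraries, against 2.07%, 46.0% and 20.02% in the vehicle libraries. Vehicle library 1 thus reached its sum mostly through Mup20 and the other 2 vehicle libraries mostly through Mup2 and Mup3. Without Mup20 the sum was 5892 and 8863 in SR4 libraries, against 6950, 23446 and 21409 in vehicle libraries, and vehicle library 1 lay within the SR4 range. The log2 ratio was then -1.07. Without both Mup20 and vehicle library 1 it was -1.63, a combination chosen after the values were seen.

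**Figure D1:**
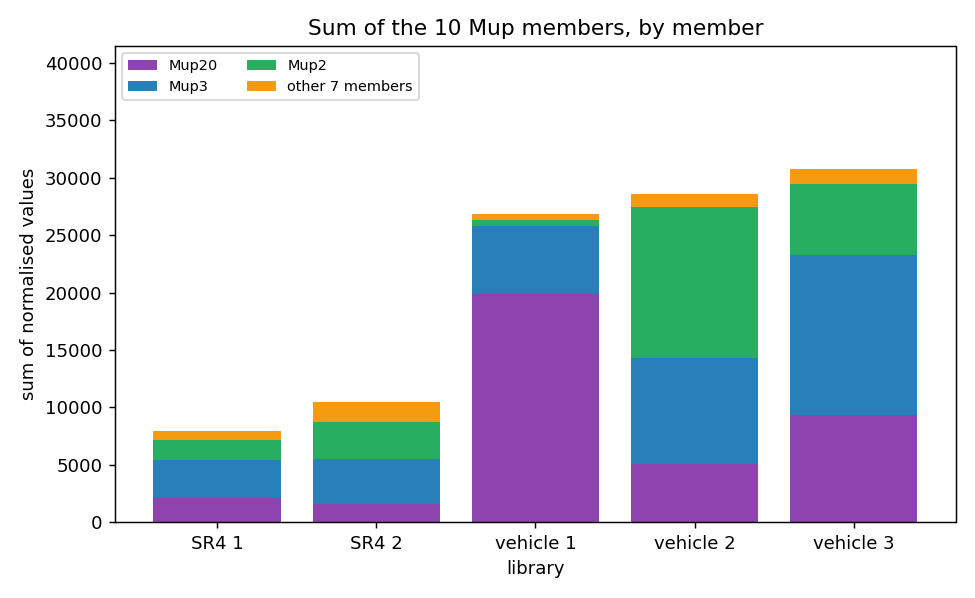
Sum of the normalised values of the 10 Mup members in each of the 5 liver libraries (vertical axis, linear from 0), SR4 libraries at the left and vehicle libraries at the right, with each bar divided by member. SR4 bars reach 7971 and 10444 and vehicle bars 26838 to 30727, while the Mup20 portion is 74.1% of the bar in vehicle library 1 and 17.9% and 30.3% in the other 2.

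Single members were tested with limma across all 10542 genes that reached a value of 10 in at least 2 libraries, on log2(value + 1), with Benjamini-Hochberg adjustment over all of them and a threshold of 0.05. This scale understates the change of low genes. In that fit 140 genes (1.33%) passed, 46 higher (0.436%) and 94 lower (0.892%) with SR4; with library totals held equal in place of TMM factors, 37 were higher and 135 lower. All 10 members passed the filter on low values, Mup10 only through vehicle libraries 2 and 3. Of the 10 members 0 passed the test in either direction. At an unadjusted p under 0.05 there were 2, Mup20 and Mup3, both lower, where 21.3% of all genes tested had such a p. Of the 10 log2 fold changes 4 were above 0 and 6 below, with a median of -0.31, against -0.01 over all genes tested. The sign of this median turned with single libraries: it was 0.12 without SR4 library 1, 0.36 without vehicle library 2 and 0.67 without vehicle library 3 (9 members tested in each of these last 2 fits), and -0.74 without SR4 library 2 and -1.43 without vehicle library 1.

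Mup20 (darcin; chromosome 4, 62050234 to 62054158, minus strand, GRCm38) had normalised values of 2080 and 1581 in SR4 libraries 1 and 2, against 19888, 5105 and 9317 in vehicle libraries 1, 2 and 3. Both SR4 values lay below the lowest vehicle value, and vehicle library 1 stood above the other 2. The means were 1830 ± 353 (SD, n = 2) in SR4 livers and 11437 ± 7616 (SD, n = 3) in vehicle livers. The log2 fold change was -2.44 (SE 0.54, 95% interval -3.78 to -1.10), or 5.41-fold lower, with an unadjusted limma p of 0.00448 and an adjusted p of 0.0927. Mup20 did not pass in any of 14 alternative settings, with limma adjusted p from 0.0619 to 0.367 and log2 fold changes from -2.91 to -1.93.

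Mup3 (chromosome 4, 62083476 to 62087342, minus strand), which encodes a urinary protein of a more divergent branch of the family, had normalised values of 3332 and 3945 in SR4 libraries, against 5870, 9237 and 13996 in vehicle libraries. The groups did not overlap. Mup3 averaged 3639 ± 434 (SD, n = 2) in SR4 livers and 9701 ± 4083 (SD, n = 3) in vehicle livers. Its log2 fold change was -1.33 (SE 0.35, 95% interval -2.18 to -0.48), or 2.52-fold lower, with an unadjusted limma p of 0.00843 and an adjusted p of 0.113. It passed in 2 of 14 alternative settings, 1 of them without vehicle library 1 (log2 fold change -1.65, limma adjusted p = 0.0425), over a range of adjusted p from 0.0423 to 0.324. Mup20 and Mup3 were the only members whose SR4 values lay below all vehicle values, a pattern that 20.5% of all genes tested had.

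Mup21 (chromosome 4, 62147932 to 62150863, minus strand), the neighbour and closest relative of Mup3 with a coding identity of 94.7%, did not share that pattern. Its normalised values were 334 and 666 in SR4 libraries, against 225, 124 and 370 in vehicle libraries. SR4 library 2 was the highest of the 5, and SR4 library 1 lay within the vehicle range. The log2 fold change was 1.11 (SE 0.51, 95% interval -0.13 to 2.35; limma adjusted p = 0.275), and the difference between the Mup21 and Mup3 responses was not tested. The 3 members that can be told apart by sequence summed to 5746 and 6192 in SR4 libraries, against 25982, 14467 and 23683 in vehicle libraries, a log2 ratio of -1.80 with no overlap.

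**Figure D2:**
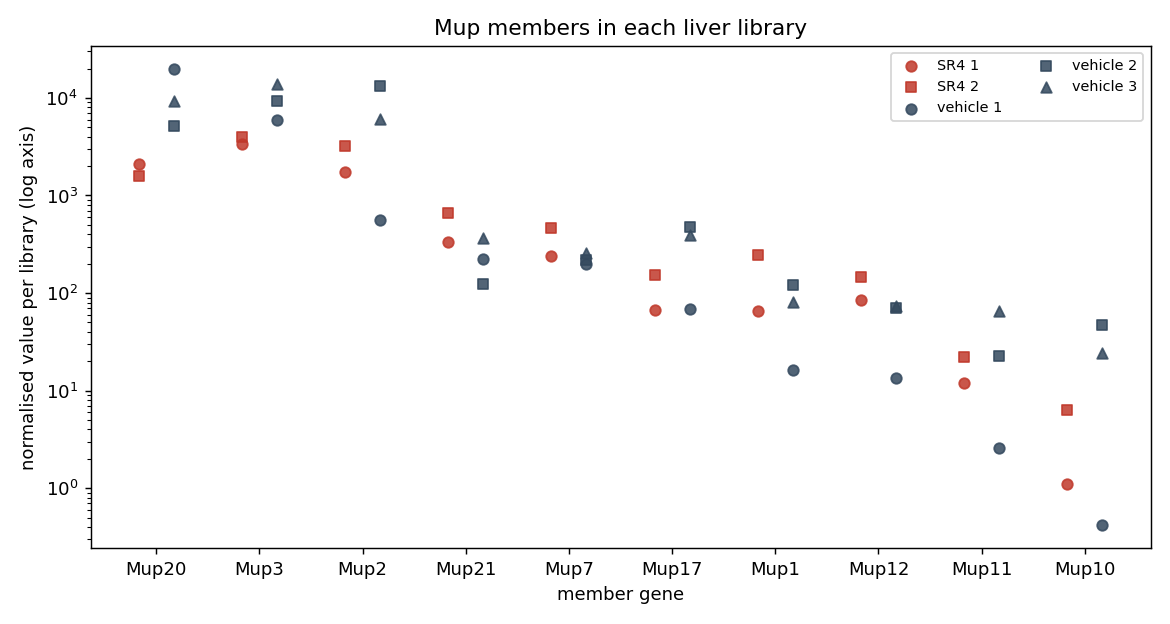
Normalised value (log axis) of each of the 10 Mup members in each library, with SR4 libraries drawn left of vehicle libraries for every gene and 1 point per library. SR4 points lie below all vehicle points for Mup20 and Mup3 and above all of them for Mup12, while vehicle library 1 is the lowest vehicle library for 8 of the 10 members.

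The sum of the 7 near-identical members varied widely among the vehicle livers themselves. It was 2226 and 4251 in SR4 libraries, against 856, 14085 and 7043 in vehicle libraries. The SR4 values lay between vehicle library 1 and the other 2, with a log2 ratio of -0.51, and the vehicle range was 16.5-fold. These 7 also share stretches with near-identical Mup rows outside the members, so their sum still depends on a split of reads. All 14 near-identical Mup rows summed to 5855 and 7972 in SR4 libraries, against 2112, 21967 and 17627 in vehicle libraries. The log2 ratio was then -0.45 and the vehicle range 10.4-fold. Mup2 (chromosome 4, 60135932 to 60154289, minus strand) was the most abundant of the 7 members. Its normalised values were 1755 and 3211 in SR4 libraries, against 556, 13127 and 6151 in vehicle libraries. The vehicle range of Mup2 was 23.6-fold, and its log2 fold change of -0.58 had a 95% interval of -4.16 to 2.99 (limma adjusted p = 0.849).

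The other near-identical members were less abundant. Mup7 had 240 and 465 in SR4 libraries, against 199, 219 and 257 in vehicle libraries. It was the steadiest member, with a vehicle range of 1.29-fold and a log2 fold change of 0.58 (95% interval -0.11 to 1.26; limma adjusted p = 0.302). Mup17 had 67.8 and 154 in SR4 libraries, against 68.1, 479 and 389 in vehicle libraries. Both SR4 values lay below vehicle libraries 2 and 3, while vehicle library 1 was as low as SR4 library 1. Mup1, the member studied as a circulating metabolic signal, had 64.9 and 246 in SR4 libraries, against 16.3, 120 and 81.2 in vehicle libraries, with overlap between the groups. Mup12 was the 1 member whose SR4 values, 84.6 and 148, lay above all vehicle values, 13.6, 70.6 and 74.4; 21% of all genes tested had that pattern. The log2 fold changes were -1.19 for Mup17, 1.20 for Mup1 and 1.39 for Mup12, and their limma adjusted p-values were 0.504, 0.516 and 0.35. Leaving out 1 library at a time gave log2 fold changes of -2.07 to -0.60 for Mup17, 0.25 to 2.15 for Mup1, 0.62 to 1.80 for Mup12 and 0.10 to 1.06 for Mup7.

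The least abundant members were near the limit of detection in vehicle library 1. Mup11 had 11.99 and 22.3 in SR4 libraries, against 2.59, 22.8 and 66.2 in vehicle libraries, with a log2 fold change of -0.04 (limma adjusted p = 0.988). Mup10 had 1.12 and 6.40 in SR4 libraries, against 0.416, 47.6 and 24.5 in vehicle libraries. Neither gene separated the groups, and a value under 3 rests on about 3 reads or fewer. Mup1 and Mup12 followed the most alike course over the 5 libraries among the 45 pairs, with a root mean square log2 distance of 0.421 after centring each gene; Mup7 and Mup21 came next at 0.51, and Mup1 and Mup20 were farthest apart at 2.47. Mup1 and Mup12 are near-identical in sequence, and the part of shared reads in this closeness was not tested.

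The table's other 8 Mup rows were Mup6, Mup8, Mup9, Mup13, Mup14, Mup15, Mup16 and Mup19. The most abundant, Mup19, had 2724 and 2796 in SR4 libraries, against 905, 5384 and 7129 in vehicle libraries. Mup15 had 362 and 407 in SR4 libraries, against 132, 1235 and 1643 in vehicle libraries, and Mup14 had 292 and 226 in SR4 libraries, against 153, 800 and 910 in vehicle libraries. In all 3 the SR4 values lay above vehicle library 1 and below vehicle libraries 2 and 3. With all 5 libraries their limma adjusted p-values were 0.908, 0.751 and 0.569, in the order Mup19, Mup15 and Mup14. Without vehicle library 1 all 3 passed, with log2 fold changes of -1.17 (limma adjusted p = 0.0412) for Mup19, -1.89 (limma adjusted p = 0.0145) for Mup15 and -1.73 (limma adjusted p = 0.0179) for Mup14; 110 of the 10525 genes in that fit passed. Without vehicle library 3 the log2 fold changes were 0.32 for Mup19 (limma adjusted p = 0.881), -0.076 for Mup15 (limma adjusted p = 0.982) and -0.45 for Mup14 (limma adjusted p = 0.803), and without vehicle library 2 they were 0.12, -0.28 and -0.54 in the same order. The direction of Mup19 and the size of all 3 differences thus depended on which vehicle library was left out.

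Mup8 was the 1 Mup row of 18 that passed with all 5 libraries, where 0.892% of all genes tested passed as lower. Its normalised values were 0.259 and 1.43 in SR4 libraries, against 19.2, 37.2 and 32.4 in vehicle libraries. The SR4 values stood near 1 read or lower, and all 3 vehicle values were above both. Mup8 met the filter on low values through the vehicle libraries alone, so its call is not independent of that filter. The log2 fold change was -4.08 (SE 0.67; limma adjusted p = 0.0471), which depends on the pseudocount and was -1.84 (limma adjusted p = 0.0635) with a pseudocount of 10. Mup8 passed in 6 of 14 alternative settings, lost the call when any 1 of the 5 libraries was left out (limma adjusted p from 0.0588 to 0.145), and shared 77.8% of its 100-base stretches with other Mup genes.

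The other 4 rows were lower or less regular. Mup16 had 120 and 205 in SR4 libraries, against 32.2, 202 and 208 in vehicle libraries. Mup13 had 125 and 84.1 in SR4 libraries, against 13.8, 96.8 and 579 in vehicle libraries. Mup6, which is the most distinct of the 18 by this measure with 0% of its 100-base stretches shared, had 18.03 and 46.4 in SR4 libraries, against 28.4, 48.2 and 61.2 in vehicle libraries, so the groups overlapped. Mup9 had 5.49 and 0.312 in SR4 libraries, against 0.273, 127 and 82.3 in vehicle libraries, and vehicle library 1 was as low as the SR4 libraries. It met the filter on low values only through vehicle libraries 2 and 3. The 18 rows together summed to 11619 and 14211 in SR4 libraries, against 28122, 36482 and 41372 in vehicle libraries, a log2 ratio of -1.44 or 2.71-fold lower, with no overlap.

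**Figure D3:**
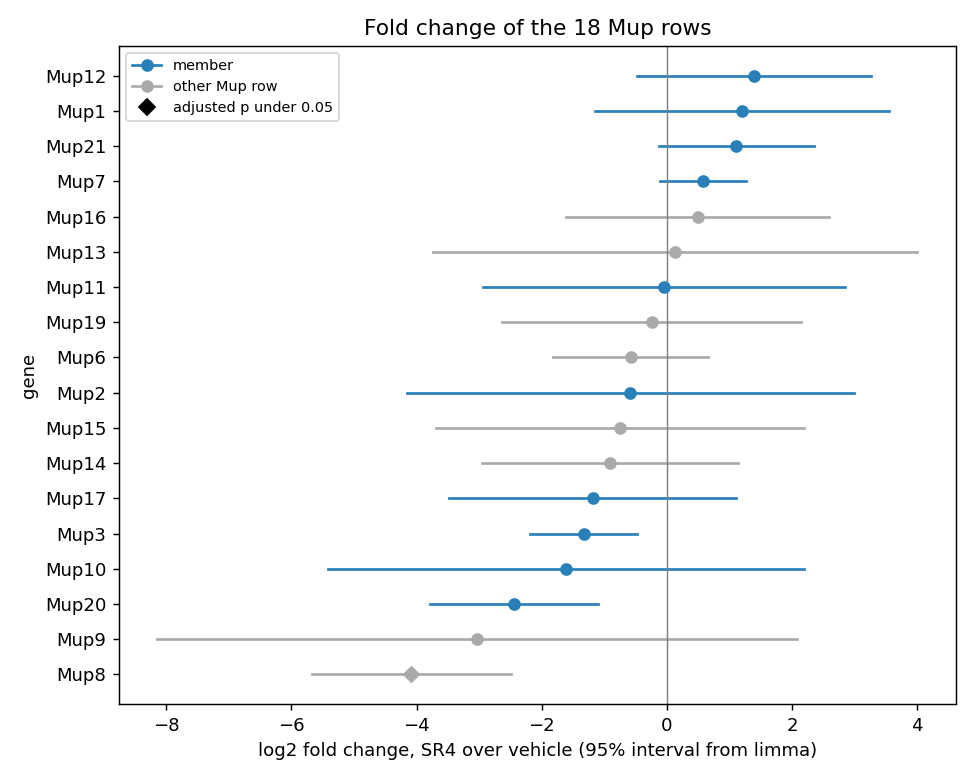
Log2 fold change, SR4 over vehicle, for the 18 Mup rows (horizontal axis), with 95% intervals from limma that are not adjusted for the number of genes. Intervals of Mup20, Mup3 and Mup8 lie below 0 and the other 15 cross it, with the widest for the near-identical rows.

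The members varied more than most genes among the vehicle livers. The SD of log2 values over the 3 vehicle libraries had a median of 1.42 over the members, against 0.16 over all genes tested. Vehicle library 1 was the lowest of the 3 vehicle libraries for 8 of the 10 members, against 36.7% of all genes tested, and the highest for Mup20. Mup20 and Mup21 were lowest in vehicle library 2. Vehicle library 1 also stood farthest from SR4 library 2 over all genes, with a Spearman rho of 0.941 across genes, in a range of 0.941 to 0.987 over the 10 pairs of libraries. The part of these library differences in the Mup results was not tested.

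Levels between members can be compared only per length. Per kilobase of transcript, normalised values of Mup3 were 3386 and 4009 in SR4 libraries, against 5965, 9387 and 14224 in vehicle libraries. Those of Mup20 were 2241 and 1703 in SR4 libraries, against 21431, 5501 and 10040 in vehicle libraries, and those of Mup2 were 1894 and 3464 in SR4 libraries, against 600, 14160 and 6635 in vehicle libraries. Mup3 was the highest member per length in both SR4 libraries and in vehicle library 3. Mup20 was the highest in vehicle library 1 and Mup2 in vehicle library 2. The order of the leading 3 thus did not hold across the vehicle livers, and the place of Mup2 rests on an uncertain split of shared reads. Mup21 followed in the SR4 libraries among members that can be told apart, at 493 and 984 per kilobase, against 332, 184 and 546 in vehicle libraries.

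Genes of the growth hormone and STAT5 axis, listed together with regulators of Mup genes, gave a mixed picture. Of 34 listed genes of the growth hormone, STAT5 and Mup regulator list, 32 were tested, and 3 rose (Cux2, Igfbp2 and Prlr), 0 fell and 29 did not pass; 0.436% of all genes passed as higher. The median log2 fold change was 0.15, against -0.01 over all genes tested. Ghr, the growth hormone receptor, had normalised values of 9250 and 10429 in SR4 libraries, against 7599, 8366 and 8633 in vehicle libraries (log2 fold change 0.26, limma adjusted p = 0.322). Both SR4 values lay above the vehicle range. The receptor's kinase Jak2 had 364 and 315 in SR4 libraries, against 393, 358 and 290 in vehicle libraries, and Stat5b, the STAT5 form that carries the male growth hormone signal in liver, had 1560 and 1304 in SR4 libraries, against 1315, 1471 and 1220 in vehicle libraries. Both overlapped between the groups, with limma adjusted p-values of 0.951 and 0.709. Stat5a had 268 and 287 in SR4 libraries, against 442, 428 and 432 in vehicle libraries. Its SR4 values lay well below a narrow vehicle range, and its log2 fold change of -0.64 (SE 0.12) had a limma adjusted p of 0.0604 (0.0436 with equal totals only, in a range of 0.0436 to 0.176 over 14 alternatives).

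Among direct targets of growth hormone signalling, Igf1, which encodes the insulin-like growth factor of plasma, had 7929 and 10323 in SR4 libraries, against 3500, 4378 and 5849 in vehicle libraries. The groups did not overlap, and the log2 fold change was 1.02 (SE 0.24; limma adjusted p = 0.089). Socs2, a feedback inhibitor of the receptor, had 101 and 195 in SR4 libraries, against 50.8, 31.0 and 119 in vehicle libraries, and Cish, another such inhibitor, had 55.2 and 526 in SR4 libraries, against 145, 52.7 and 502 in vehicle libraries. Cish varied widely within each group. Onecut1, a hepatocyte transcription factor, had 54.3 and 268 in SR4 libraries, against 59.7, 65.0 and 286 in vehicle libraries, and Bcl6, a repressor that opposes STAT5 in male mouse liver, had 654 and 126 in SR4 libraries, against 314, 883 and 205 in vehicle libraries. SR4 library 2 and vehicle library 3 were the highest of their groups for Cish and Onecut1 and the lowest for Bcl6. Zhx2, a repressor of some liver genes and an activator of Mup genes in mice, had 346 and 341 in SR4 libraries, against 334, 381 and 417 in vehicle libraries; neither it nor the receptor genes Nr3c1 for glucocorticoid (limma adjusted p = 0.678) and Thrb for thyroid hormone (limma adjusted p = 0.838) passed.

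Cux2, a repressor of male-biased genes that is expressed in female mouse liver, rose in SR4 livers. It had normalised values of 687 and 743 in SR4 libraries, against 7.90, 27.5 and 24.0 in vehicle libraries, with no overlap. The log2 fold change was 5.27 (SE 0.51; limma adjusted p = 0.026). Prlr, the prolactin receptor, a gene expressed more in female liver, rose to 5922 and 7479 in SR4 livers, against 1720, 2793 and 2693 in vehicle livers, a log2 fold change of 1.50 (SE 0.24; limma adjusted p = 0.0468). Igfbp2, an IGF-binding protein, rose to 1880 and 1805 in SR4 libraries, against 588, 742 and 967 in vehicle libraries, a log2 fold change of 1.30 (SE 0.20; limma adjusted p = 0.0468). These 3 calls were lost without vehicle library 2, without vehicle library 3 or without SR4 library 2, and those of Igfbp2 and Prlr also without SR4 library 1, while all 3 kept their direction.

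**Figure D4:**
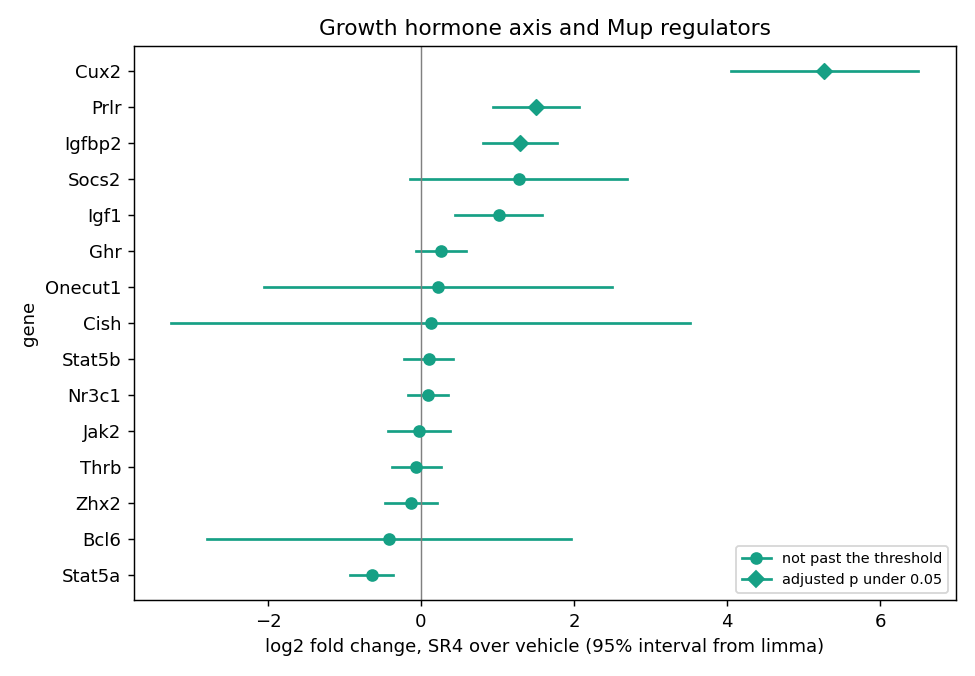
Log2 fold change, SR4 over vehicle, for the named genes of the growth hormone, STAT5 and Mup regulator list (horizontal axis), with unadjusted 95% intervals from limma. Cux2 lies at 5.27, Prlr, Igfbp2 and Igf1 between 1.02 and 1.50, and Stat5b, Jak2, Nr3c1, Zhx2 and Thrb within 0.13 of 0.

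Other sex-biased liver genes were counted because most Mup genes are male-biased. Of 25 listed male-biased genes, 21 were tested, with 12 log2 fold changes above 0 and 9 below and a median of 0.15. The 1 that passed, where 0.436% of all genes tested passed as higher, was C8b, a complement subunit. C8b rose to 2430 and 3050 in SR4 livers, against 549, 922 and 900 in vehicle livers (log2 fold change 1.82, limma adjusted p = 0.039). Of 30 listed female-biased genes, 29 were tested, with 28 log2 fold changes above 0 and 1 below and a median of 1.14; of all 10542 genes tested, 5159 were above 0 and 5383 below, with a median of -0.01. Of the 29 genes 3 rose and 0 fell, where 0.436% of all genes passed as higher and 0.892% as lower: Cyp3a41a, a female-specific cytochrome P450 of mouse liver, Nipal1, a magnesium transporter gene, and Atp6v0d2, which encodes part of the vacuolar ATPase. Cyp3a41a had 368 and 1166 in SR4 libraries, against 29.1, 41.8 and 39.7 in vehicle libraries (log2 fold change 4.13, limma adjusted p = 0.0338). Cyp3a41a belongs to a cluster of similar genes, so its value is uncertain. The lists overlap with genes that earlier analysis of these libraries had singled out and are not independent evidence of a direction. The calls of these 4 genes were lost without vehicle library 2, without vehicle library 3 or without SR4 library 2; that of C8b was also lost without SR4 library 1 and that of Cyp3a41a without vehicle library 1.

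None of the carriers related to the Mup proteins passed the test, which 1.33% of all genes tested passed. Of 18 listed symbols for other lipocalins and for fatty acid or retinol carriers, 13 were tested and 0 passed in limma, with 4 of the 13 at an unadjusted p under 0.05, against 21.3% of all genes tested, and a median log2 fold change of -0.15. Apom, the lipocalin of high-density lipoprotein, had 2648 and 2599 in SR4 libraries, against 1727, 1922 and 1725 in vehicle libraries (log2 fold change 0.55, limma adjusted p = 0.0635). Fabp2, a fatty acid binding protein, had 2738 and 2177 in SR4 libraries, against 4947, 3915 and 3608 in vehicle libraries (log2 fold change -0.75, limma adjusted p = 0.0851). Neither overlapped between the groups, Apom with the SR4 values above and Fabp2 with them below. Of 29 other abundant secreted liver proteins, all were tested, and 24 had log2 fold changes above 0 and 5 below, with a median of 0.33. Over all 10542 genes tested, 5159 lay above 0 and 5383 below, with a median of -0.01. Of the 29 genes 1 passed, where 0.436% of all genes tested passed as higher. It was C3, the central complement component, which rose to 245045 and 229804 in SR4 livers, against 94414, 111609 and 103646 in vehicle livers (log2 fold change 1.20, limma adjusted p = 0.0471); this call was lost when any 1 of the 5 libraries was left out (limma adjusted p from 0.0503 to 0.165).

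The genes whose course over the 5 libraries lay nearest to the family sum were sought by root mean square log2 distance after centring, with no p. They were Tsc22d1 at 0.121, Gm13152 at 0.174, 2810408I11Rik at 0.175, Acly at 0.178 and C1qtnf4 at 0.179. Tsc22d1, a leucine zipper protein gene, had 940 and 1319 in SR4 libraries, against 3455, 3045 and 3226 in vehicle libraries. Acly, the ATP citrate lyase that supplies acetyl-CoA for fatty acid synthesis, had 9404 and 12386 in SR4 libraries, against 34396, 32942 and 27427 in vehicle libraries. Both fell with SR4, by 2.91-fold each, with limma adjusted p-values of 0.026 for Tsc22d1 and 0.0338 for Acly. Neither passed without vehicle library 2 or without vehicle library 3, nor Acly without SR4 library 2. All genes compared share the same 5 libraries and their scaling. The fall of these genes follows from their choice as nearest to a sum that was lower with SR4, so their p-values add no support.

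The libraries were liver by their markers. All 8 hepatocyte markers were present, summing to normalised values of 2471850 to 3058910 in SR4 livers and 2069340 to 2808340 in vehicle livers. These ranges overlapped, and 1 of the 8 markers passed, where 1.33% of all genes tested did. Of 8 Kupffer cell and macrophage markers 7 were present and 0 passed in limma, summing to 2202 to 4399 in SR4 livers and 4401 to 6666 in vehicle livers. The 8 stellate cell markers summed to 6095 to 7980 in SR4 livers and 7394 to 12451 in vehicle livers, and the 7 endothelial markers summed to 2538 to 4427 in SR4 livers and 3116 to 4650 in vehicle livers. Of 7 cholangiocyte markers the 1 with a row in the gene table, Spp1, was highest in vehicle library 1 at 3518, against 715 to 1252 in the other 4 libraries. None of the markers with a row in the gene table was at 0 in all libraries. Such a row was present for 0 of 7 lymphocyte, 0 of 4 kidney, 1 of 4 adipocyte and 1 of 4 pancreas markers. The adipocyte and pancreas genes did not pass. The part of these cell types in the Mup result was not tested. Since Mup levels differ between the sexes, the Y-linked genes Ddx3y, Eif2s3y, Kdm5d and Uty, chosen after their values were seen, were summed: they came to 2018 and 2286 in SR4 libraries and 2201 to 2424 in vehicle libraries, so Y-linked transcripts were present in all 5 libraries.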

How the data were processed

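Per the labels' protocols, liver RNA came from an RNeasy Mini kit and 500 ng of total RNA entered TruSeq RNA V2 libraries, which keep no strand. Build GRCm38 (mm10), TopHat2 2.1.1 and Partek are named in the submitters' processing notes. The counter, annotation, multi-mapping rule and adjustment were not given in the sources used here. Deposited values are signal values, in this case gene read counts brought by the authors to 1 library size: the 5 columns summed to 25494257 within 0.00116%, and 0% of values from 1 to 1000 were whole. Read totals estimated from the most frequent low value, taken as 1 read, were 27700000 and 26300000 in SR4 libraries and 23500000 to 26500000 in vehicle libraries. In 17 of 11065 rows (0.177% of values) a date replaced the symbol; they were left out.

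Values were divided by TMM factors (0.946 to 1.07) and tested with limma 3.58.1 in R 4.3.3 on log2(value + 1), for genes at 10 or more in at least 2 libraries, with a mean trend and robust shrinkage, two-sided. Sequence comparisons used Biopython 1.88, GENCODE M21 and RefSeq. Named genes were all Mup rows, 14 regulators where present, up to 3 passing members of each list (or the 2 with the smallest p), Alb, and the 5 genes nearest the family sum. The members, lists and tests were chosen with earlier results of these data known. Alternatives were other scaling, filters, pseudocounts and shrinkage, the replicate number as a block, each library left out and other sums.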

Additional observations from a re-analysis of the deposited data

How the results depend on the processing

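The family sum stayed lower with SR4 under every setting run: its log2 ratio of -1.65 was -1.77 with equal totals only, -1.44 over all 18 Mup rows, -1.07 without Mup20, -1.79 without Mup3 (chosen after seeing the data), and -1.85 to -1.45 with each library left out. The share difference of -0.0818 percentage points ran from -0.0866 to -0.0770. Of 10542 genes 140 passed, and 475 did with the replicate number as a block and 5 to 180 with each library left out (5, 7 and 8 without vehicle library 3, SR4 library 2 and vehicle library 2); the cause was not tested. Equal totals only moved the median log2 fold change of all genes to -0.13. Members that passed numbered 0, and 1 (Mup3) without vehicle library 1 or with the block (log2 fold change -1.02, limma adjusted p = 0.0423), which also let Igf1 (limma adjusted p = 0.0218) and Fabp2 (limma adjusted p = 0.0382) pass and lost C3 (limma adjusted p = 0.0743; 0.0694 without robust shrinkage). The median of the members, -0.31, was 0.24 with the block and ran from -1.43 to 0.67 with each library left out and from -0.42 to -0.0031 in the other settings. Only 2 numbers were shared between groups, and the numbers were not taken as pairs. Same-numbered libraries deviated from their group means together by r = 0.174 and 0.114, and libraries with swapped numbers by -0.174 and -0.114. With 2 SR4 libraries the SR4 deviations mirror each other, so these values cannot decide whether the numbers are pairs. The block leaves 1 vehicle library on its own.

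Signs of small log2 fold changes turned with equal totals only for Stat5b (-0.018), Nr3c1 (-0.028) and Alb (-0.025), with a pseudocount of 0.5 for Mup11 (5.2e-05), with a pseudocount of 10 for Mup13 (-0.023), and with the block for Mup11 (0.91) and Mup19 (0.32). With each library left out, signs turned within -1.20 to 0.91 for Mup11, -1.20 to 1.44 for Mup13, -0.39 to 0.94 for Mup16, -1.17 to 0.32 for Mup19, -1.92 to 0.36 for Mup2, -1.23 to 0.088 for Mup6, -0.025 to 0.23 for Stat5b, -0.067 to 0.26 for Alb, -0.15 to 0.080 for Jak2, -1.49 to 1.75 for Cish, -0.92 to 1.37 for Onecut1, -1.60 to 0.76 for Bcl6, -0.17 to 0.061 for Thrb, and -0.36 to 0.10 for the median of other lipocalins. Of the 11 other named genes that passed, 6, 1, 8, 0 and 0 did so without SR4 libraries 1 and 2 and vehicle libraries 1, 2 and 3, all in the same direction. The planned tests with edgeR and DESeq2 were not run, because the values are not counts. Values under about 3 reads, as for Mup8, Mup9 and Mup10, limit what can be said of those genes.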
